A study of Rattus norvegicus with 3 samples.

Results

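The AP-1 transcription factors described here are the Fos, Jun and Batf families of basic leucine zipper (bZIP) proteins in NR8383, an established line of rat alveolar macrophages. The list held 10 genes chosen by name, the Fos family members Fos, Fosb, Fosl1 and Fosl2, the Jun family members Jun, Junb and Jund, and Batf, Batf3 and Jdp2. Of these, 9 were measured, by 10 probes, among 15924 named genes in all. Fosb had no named probe and is not analysed here. The tested cultures received the single-wall carbon nanotube preparation CNT-2 or CNT-1, both described as free of impurities, at 0.1 mg/mL for 24 h in medium with 1 mg/mL bovine serum albumin. The labels name the control at 24 h as untreated in one field and as a solvent control with albumin in another, so whether it received albumin is not settled. The labels do not say what sets CNT-2 and CNT-1 apart. All 3 groups are cultures of the same line, and each had 1 column of array values.

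AP-1 proteins bind DNA as dimers held together by their leucine zippers. Jun proteins pair with each other or with Fos proteins, Fos proteins need a partner such as Jun, and Batf proteins and Jdp2 pair with Jun and can displace Fos. Fos, Fosb, Jun and Junb are classic immediate early genes, switched on within minutes of a stimulus through mitogen-activated protein (MAP) kinases and often silent again well before a day has passed, whereas Fosl1 is a later and longer-lived member of the group. In macrophages AP-1 takes part in the response to particles, endotoxin and cytokines.

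The values are the authors' deposited numbers, presumed to be on a log2 scale and centred per probe on an unstated baseline, so a value near 0 means near that baseline and says nothing of how abundant a transcript was. With 1 column per group no test between conditions was possible and no difference below has a replicate check. "Higher" and "lower" therefore describe these columns only, and "past the threshold" means at least 1 log2 unit, which is 2-fold on a log2 base. The only error at hand is technical, the SD over the probes of a gene, which over 3910 genes with 2 or more probes had a median of 0.19 in CNT-2 minus control and 0.076 in CNT-1 minus control. Between CNT-2 and CNT-1 it was 0.17. Precision is limited by how few arrays there are. In RNA from a whole culture, fewer cells with a transcript and less of it per cell cannot be told apart.

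In CNT-2, 3 of 9 AP-1 genes were past the threshold on the higher side, namely Fosl1, Jund and Junb, and 1 of 9 on the lower side, Batf3. Among all 15924 named genes 10.1% were past it on the higher side and 6.56% on the lower side. The other 5 AP-1 genes lay between -0.095 and 0.85, and the median of the 9 was 0.38 against 0.041 over all genes. The 2 prototypes of the families, Fos and Jun, were at 0.13 and 0.089.

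Fosl1, which encodes Fra-1, a Fos protein without the strong activation domain of Fos itself, was at 4.94 in CNT-2, at 0.61 in CNT-1 and at 0.041 in control (1 probe). Its difference of 4.90 between CNT-2 and control corresponds to 29.9-fold, and 39 of the 15924 genes had a larger one. Jund, a Jun protein that resting cells commonly contain, was measured by 2 probes, which read 3.18 and 3.30 in CNT-2, 0.57 and 0.45 in CNT-1, and 0.043 and -0.0050 in control. Both probes put CNT-2 highest, and the gene difference from control was 3.22 ± 0.12 (probe SD, 2 probes), or 9.30-fold, with 150 genes further up. Junb, an immediate early Jun protein that drives some macrophage genes and restrains cell division in other settings, was at 2.03 in CNT-2, -0.23 in CNT-1 and 0.044 in control (1 probe). Its difference of 1.98 corresponds to 3.95-fold, with 441 genes further up.

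Batf3, known from mice as a factor that one class of dendritic cells needs, was the AP-1 gene furthest on the lower side. It was at -2.62 in CNT-2, -0.80 in CNT-1 and -0.019 in control (1 probe). The difference of -2.60 between CNT-2 and control is 6.05-fold lower, and 54 of all named genes lay lower still. The 4 genes past the threshold were therefore single-probe measurements except for Jund.

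**Figure D1:**
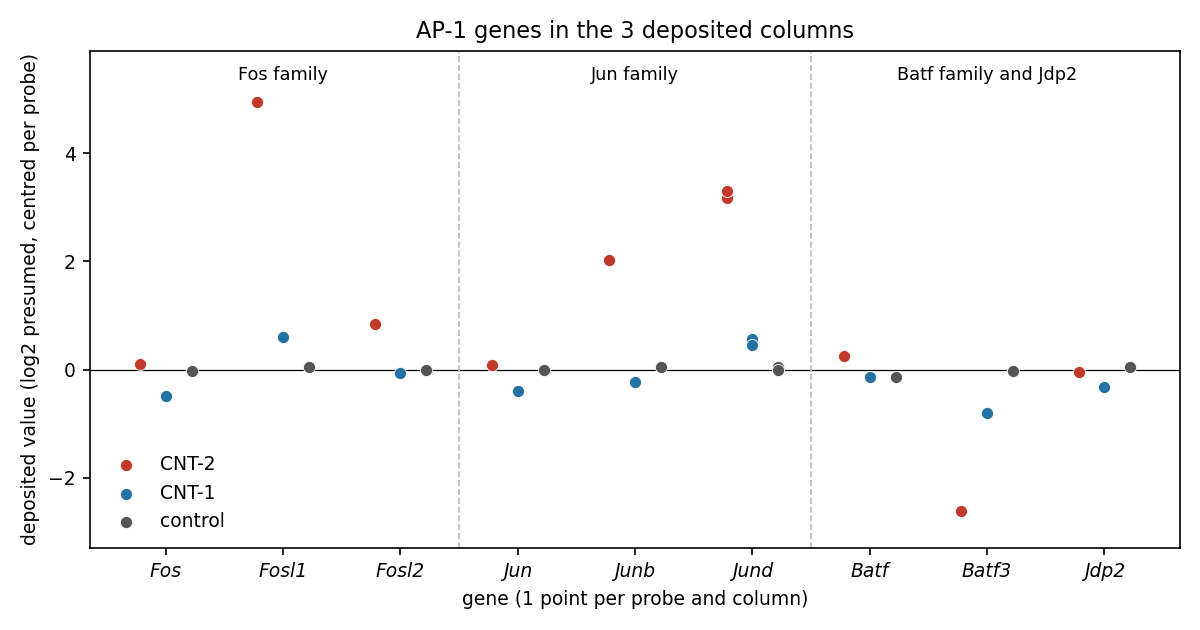
Deposited values (vertical axis, log2 presumed, centred per probe) of the 9 measured AP-1 genes in the columns for CNT-2, CNT-1 and control, with 1 point per probe and Jund shown by 2 probes. Fosl1, Jund and Junb stand high and Batf3 low in CNT-2, while the control points of these 9 AP-1 genes lie between -0.131 and 0.044.

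Fosl2, or Fra-2, a relative of Fosl1 with a similar build, lay just short of the threshold as deposited. Its probe read 0.84 in CNT-2, -0.071 in CNT-1 and -0.012 in control, a difference of 0.85 for CNT-2 minus control. That difference would be 1.23 were the values natural logs. It was 0.41 with each column centred on its 75th percentile and 0.54 under quantile normalization. Fos read 0.094 in CNT-2, -0.48 in CNT-1 and -0.031 in control. Jun read 0.081 in CNT-2, -0.40 in CNT-1 and -0.0080 in control. For both prototypes the CNT-1 column was the lowest of the 3 and the CNT-2 column was within 0.13 of control. Batf, which pairs with Jun and with interferon regulatory factors in lymphocytes, read 0.25 in CNT-2, -0.14 in CNT-1 and -0.13 in control. Jdp2, a repressor of AP-1 sites, read -0.053 in CNT-2, -0.32 in CNT-1 and 0.042 in control. The signs of the CNT-2 differences of Fos, Jun and Batf are not settled. The difference of Fos was -0.31 with each column centred on its 75th percentile, that of Jun -0.35 and that of Batf -0.060. The same centring moved the median of all genes from control by -0.44, and centring on spike-in probes moved it by -0.23.

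By family, the Fos genes had a median difference of 0.85 between CNT-2 and control with 1 of 3 measured genes past the threshold, the Jun genes 1.98 with 2 of 3, and the group of Batf, Batf3 and Jdp2 -0.095 with 1 of 3, on the lower side. Over all genes 10.1% were past it on the higher side and 6.56% on the lower side. With 3 measured genes each, these counts describe the genes and not the families. Within each family the members thus spread widely, from 0.13 to 4.90 for Fos genes and from 0.089 to 3.22 for Jun genes. Fos, Jdp2 and Batf are direct neighbours on rat chromosome 6, with 0 other protein-coding genes between Fos and Jdp2 and 0 between Jdp2 and Batf in RefSeq assembly GRCr8. None of these 3 neighbours was past the threshold in either nanotube column.

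In CNT-1, 0 of 9 AP-1 genes were past the threshold in either direction, with no test available, against 1.16% of all genes on the higher side and 2.15% on the lower side. The 9 genes ran from -0.78 to 0.57 with a median of -0.28, against -0.043 over all genes, and 7 of 9 lay below 0, as did 9196 of the 15924 genes. At the top of this order stood the same 2 genes as in CNT-2. Fosl1 was 0.57 above control, with 635 of all genes further up, and Jund 0.49 ± 0.05 above (probe SD, 2 probes), with 819 further up. At the bottom stood Batf3, 0.78 below control in size (-0.78), with 589 genes lower. Fos at -0.45, Jun at -0.39, Jdp2 at -0.37 and Junb at -0.28 followed. Neighbours in the stretch from Junb to Fos lay between 0.023 and 0.089 apart, about the median probe SD of this comparison, so their order is not resolved. Fosl2 at -0.059 and Batf at -0.0090 lay at the control value, and their sign turned under quantile normalization. CNT-1 minus control and CNT-2 minus control share the control column, so their likeness across genes is not read as a result.

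**Figure D2:**
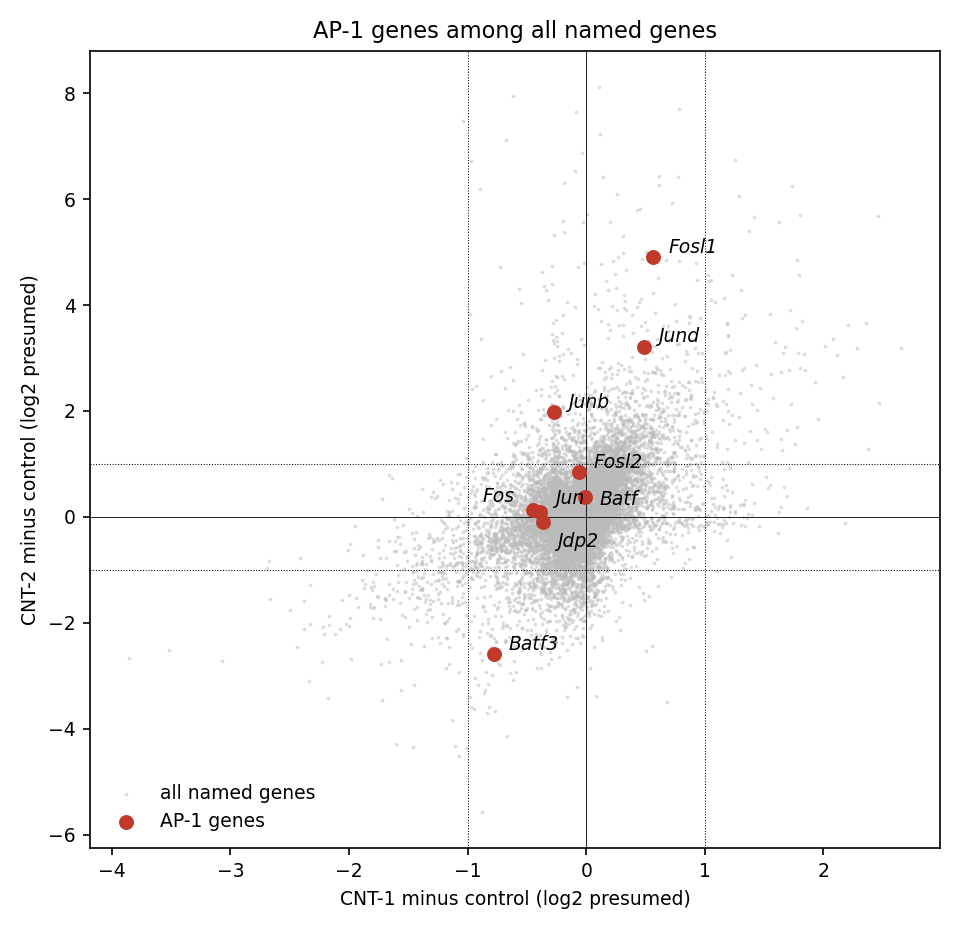
Difference from control in CNT-2 (vertical axis) against that in CNT-1 (horizontal axis), both log2 presumed, for all 15924 named genes in grey and the 9 AP-1 genes in red, with dotted lines at 1 log2 unit either way. Fosl1 at 4.90 and Batf3 at -2.60 lie at the vertical ends of the AP-1 genes, and none passes the threshold along the CNT-1 axis. The axes share the control column.

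Set directly against each other, without the control, the nanotube columns differed past the threshold for the same 4 genes. This comparison shares the CNT-2 column with CNT-2 minus control, and the CNT-1 values of the AP-1 genes ran only from -0.80 to 0.61. The return of the same genes is therefore not read as a separate result. Fosl1 was 4.34 higher in CNT-2 than in CNT-1, Jund 2.73 ± 0.17 higher (probe SD, 2 probes) and Junb 2.26 higher, while Batf3 was at -1.82. After quantile normalization Fosl1 was at 1.77, Jund at 1.04, Junb at 1.285 and Batf3 at -0.66. As deposited, 3 of 9 genes were past the threshold on the higher side and 1 of 9 on the lower side, against 9.32% and 4.65% of all genes. Junb was the AP-1 gene of these 4 whose nanotube columns lay on opposite sides of control, at 1.98 for CNT-2 and -0.28 for CNT-1. Fosl2 was at 0.91, Fos at 0.58, Jun at 0.48, Batf at 0.39 and Jdp2 at 0.27, all above 0, beside a median over all genes of 0.15. The Jdp2 value became -0.11 with 75th percentile centring.

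How genes of the whole table split into higher and lower, which these shares are read against, moved with the scaling. CNT-2 was above control for 60.7% of genes past the threshold as deposited, for 26.7% after 75th percentile centring and for 42.1% after spike-in centring. For CNT-1 minus control it was 35.0% as deposited, 46.0% after quantile normalization and 55.6% without subtracting the control. For CNT-2 minus CNT-1 it was 66.7%, and 55.7%, 32.9%, 52.1% and 42.4% with median, 75th percentile, quantile and spike-in scaling. The 10 E1A spike-in probes were at 0.23 ± 0.10 in CNT-2 minus control and -0.046 ± 0.073 in CNT-1 minus control (SD over probes). Another set of 18 control probes (DCP, of unstated purpose) ran from -0.54 to 0.33 in CNT-2 minus control and from -0.28 to 0.053 in CNT-1 minus control. Of 15 alveolar macrophage markers 12 had a probe, and centring removed their levels, so the cell type could not be checked by level. In CNT-2 1 of the 12 was past the threshold on the higher side and 3 on the lower side, 6 of 12 lay above 0 and the median was -0.014, beside the 10.1% and 6.56% of all genes. The endotoxin co-receptor Cd14 was above control by 3.37 ± 0.16 (probe SD, 2 probes). The macrophage receptor genes Fcgr1a, Mrc1 and Csf1r were below control, with differences of -2.56 ± 0.61, -2.24 ± 0.13 and -1.25 ± 0.60 (probe SD, 2 probes each). Csf1r was at 0.52 in control and at -0.73 in CNT-2, so its place past the threshold rests on the control value. In CNT-1 0 of 12 were past the threshold. Of 20 measured markers of other lung and blood cells 1 was past the threshold on the higher side and 2 on the lower side in CNT-2, with a range from -1.73 to 2.56 and a median of -0.015, and in CNT-1 1 of 20 was higher and 0 lower, with a range from -0.79 to 1.61. The part of these probes and markers in the AP-1 values was not tested.

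**Figure D3:**
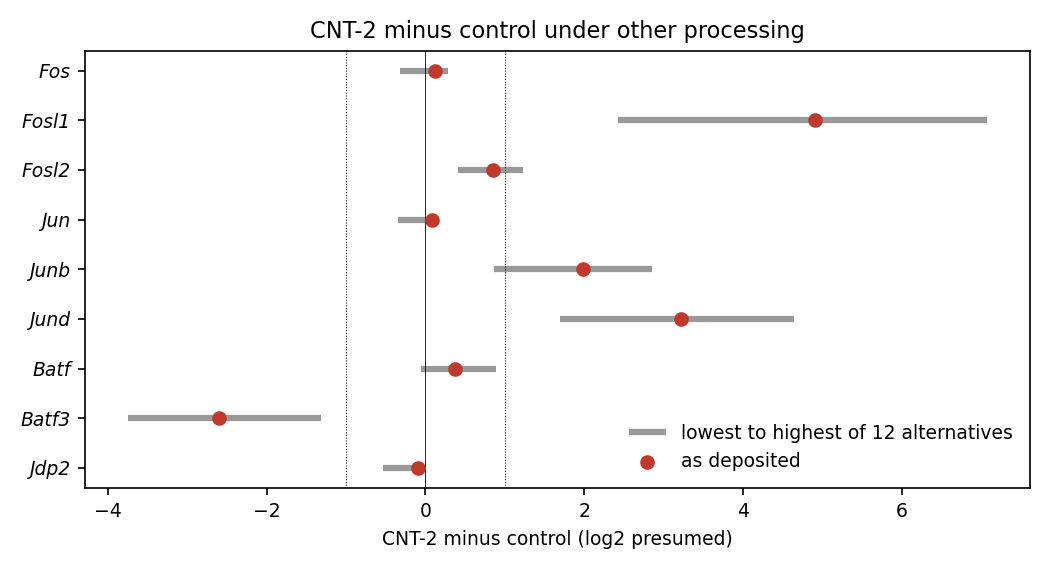
CNT-2 minus control (horizontal axis, log2 presumed) for the 9 AP-1 genes as deposited (red points) and the range over 12 processing alternatives (grey bars), with dotted lines at 1 log2 unit either way. The bars of Fosl1, Jund and Batf3 stay outside the dotted lines, that of Junb reaches 0.87, and those of Fos, Jun and Batf cross 0. Some alternatives, such as another threshold, leave the values unchanged.

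Several of the 12 alternatives could not bring a difference of these genes below 1 log2 unit. Another threshold, log base or probe summary cannot do so, and no AP-1 probe was left out for lying near the negative-control probe. The scalings and the lack of control subtraction could. Under these Fosl1, Jund and Batf3 stayed past the threshold of 1 log2 unit in CNT-2 minus control, and Junb fell short of it under quantile normalization at 0.87. That scaling forces the narrow control column, whose values had an SD of 0.16 over probes, onto the same distribution as CNT-2 with an SD of 0.85, and it also gave the smallest sizes for Fosl1, 2.43, Jund, 1.69, and Batf3, -1.31.

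The promoters of the 4 genes past the threshold in CNT-2 are shown because the counts in CNT-2 rest on these genes. They are RefSeq sequences of assembly GRCr8, from 250 bases before to 50 bases after the start of each gene and written 5′ to 3′ on the strand of the gene. Capitals mark the words found by the search described after the sequences.
Fosl1 promoter (chr1:212183635-212183934, plus strand): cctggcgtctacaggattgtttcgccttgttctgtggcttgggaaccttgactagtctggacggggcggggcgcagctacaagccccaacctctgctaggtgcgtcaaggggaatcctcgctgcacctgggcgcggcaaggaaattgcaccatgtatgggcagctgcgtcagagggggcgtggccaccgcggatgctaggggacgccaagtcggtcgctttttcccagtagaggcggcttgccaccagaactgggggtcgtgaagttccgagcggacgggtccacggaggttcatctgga
Jund promoter (chr16:18769722-18770021, minus strand): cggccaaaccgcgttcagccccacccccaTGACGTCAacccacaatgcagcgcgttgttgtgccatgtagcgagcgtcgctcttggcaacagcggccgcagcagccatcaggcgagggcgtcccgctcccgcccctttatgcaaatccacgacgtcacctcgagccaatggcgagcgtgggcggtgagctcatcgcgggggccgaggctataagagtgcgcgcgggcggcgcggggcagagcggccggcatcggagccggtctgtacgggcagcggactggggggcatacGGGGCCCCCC
Junb promoter (chr19:40080876-40081175, plus strand): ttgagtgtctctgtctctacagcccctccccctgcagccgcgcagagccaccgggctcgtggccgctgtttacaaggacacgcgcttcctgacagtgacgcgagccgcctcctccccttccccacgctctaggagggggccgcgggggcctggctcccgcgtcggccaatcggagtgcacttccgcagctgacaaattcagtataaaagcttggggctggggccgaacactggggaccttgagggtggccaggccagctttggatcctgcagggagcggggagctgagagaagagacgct
Batf3 promoter (chr13:105220532-105220831, plus strand): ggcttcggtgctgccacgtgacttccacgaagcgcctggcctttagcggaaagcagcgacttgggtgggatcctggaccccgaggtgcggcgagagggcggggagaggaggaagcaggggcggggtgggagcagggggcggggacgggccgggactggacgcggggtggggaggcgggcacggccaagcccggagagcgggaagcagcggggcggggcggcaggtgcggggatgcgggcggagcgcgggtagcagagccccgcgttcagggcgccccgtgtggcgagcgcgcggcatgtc

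Promoters were available for 8 of the 10 listed genes, all but Fos and Jun. The words searched on both strands, with a position matched on both strands counted once, were the AP-1 site TGACTCA, the cyclic AMP response element TGACGTCA, the variant TGACATCA known from the Jun promoter, the CArG box bound by serum response factor and the kappaB site bound by NF-kappaB. TGACGTCA stood in the Jund promoter only, 221 bases before the start, and in 1.83% of all 33469 promoters of the same length. A kappaB match stood in 2 of 8 promoters, those of Jund, 40 bases past the start, and Batf, 227 bases before it, against 5.02% of all promoters. The matches in Jund do not overlap. TGACTCA, TGACATCA and the CArG box stood in 0 of 8 promoters, against 4.63%, 4.34% and 1.64% of all, which says only that these letters are not in these windows. The GC content was 62.3% for Fosl1, 69.7% for Jund, 65.3% for Junb and 75.3% for Batf3, and for the genes within the threshold 74.0% for Jdp2, 70.7% for Fosl2 and 46.7% for Batf, beside a median of 51.7% over all promoters.

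Several relatives with the same bZIP fold, among them partners of the AP-1 proteins, were high in the CNT-2 column too. Of 25 such genes on the list 23 were measured, and in CNT-2 minus control 9 were past the threshold on the higher side and 1 on the lower side, with a median of 0.69. Over all genes the shares were 10.1% and 6.56% and the median 0.041. These relatives were listed with earlier results of these data known, so the counts only describe the list. Maff, a small Maf protein that dimerises with NRF2-type factors and has no activation domain of its own, was at 5.34 in CNT-2, 1.32 in CNT-1 and -0.050 in control, a difference of 5.39 for CNT-2. The other small Maf genes were Mafk, with a difference of 2.37, and Mafg, with 1.44 ± 0.06 (probe SD, 2 probes), so all 3 small Maf genes were past the threshold. Atf3, a stress factor that pairs with Jun proteins, was at 3.77 in CNT-2, 0.87 in CNT-1 and -0.0030 in control. Ddit3, which encodes CHOP, had a difference of 2.73. Cebpd, an acute phase factor, was the gene on the lower side at -1.07. In CNT-1 1 gene, Maff at 1.37, was above the threshold. Bach2, a repressor that pairs with small Maf proteins, was 1 gene below it, at -1.18, with -0.10 in the CNT-1 column and 1.08 in the control column. Quantile normalization left Mafg at 0.87 and Cebpd at -0.65 in CNT-2, and put Atf3 at 1.27 and Mafk at 1.05 in CNT-1.

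**Figure D4:**
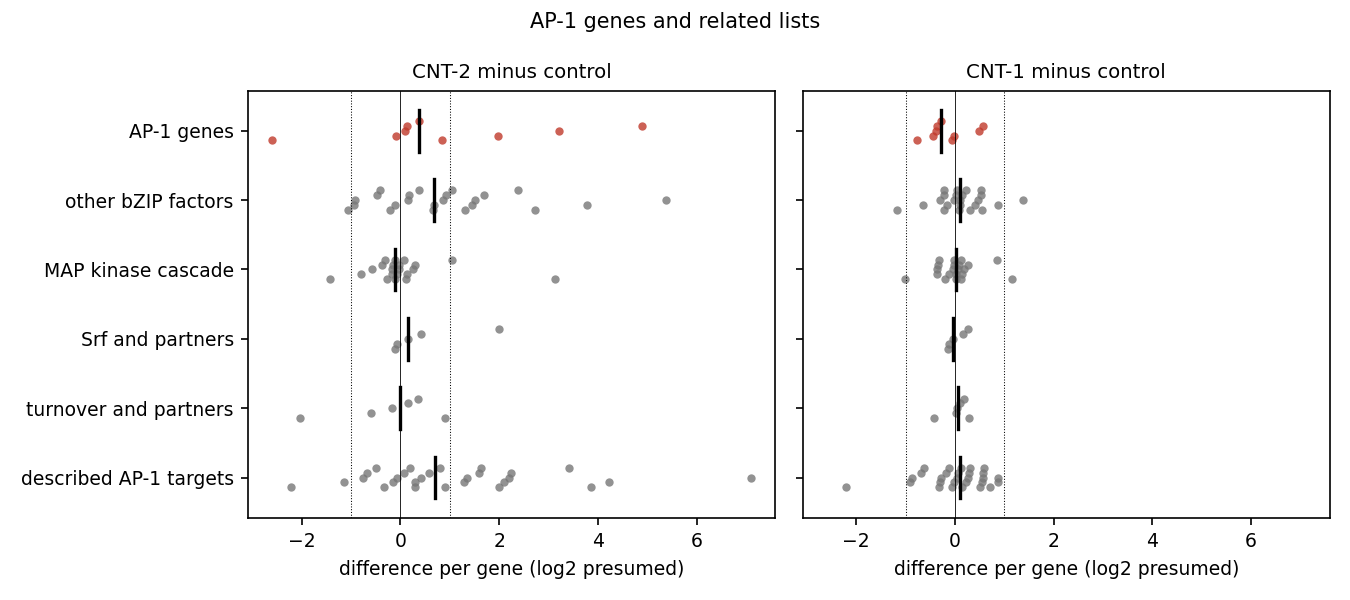
Differences per gene (horizontal axis, log2 presumed) for the AP-1 genes in red and 5 related lists in grey, CNT-2 minus control in the left panel and CNT-1 minus control in the right one, with 1 point per gene, black bars at the medians and dotted lines at 1 log2 unit. In CNT-2 the medians of the other bZIP factors, 0.69, and of the described AP-1 targets, 0.70, lie to the right of that of the MAP kinase cascade, -0.10.

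Of 23 listed genes of the MAP kinase cascade, which acts on Fos and Jun proteins, 21 were measured. In CNT-2 2 were past the threshold on the higher side and 1 on the lower side, shares near the 10.1% and 6.56% of all genes, and the median was -0.10. Mapk13, a p38 kinase, was at 3.04 in CNT-2, 0.75 in CNT-1 and -0.094 in control. Mapk14, a widely expressed p38 kinase, lay on the other side, with a difference of -1.42 ± 0.46 for CNT-2 (probe SD, 3 probes). Map2k1, an ERK-activating kinase, was at 1.04, or 0.61 with 75th percentile centring. Of the JNK kinases, which phosphorylate Jun, Mapk8 was at -0.031 ± 0.45 (probe SD, 4 probes) and Mapk9 at 0.14 ± 0.36 (probe SD, 3 probes). Mapk10, also a JNK kinase, was at -0.10 (1 probe). In CNT-1 Mapk12 was past the threshold at 1.16 and the JNK kinase Mapk10 at -1.01. Quantile normalization left Mapk14 at -0.70 in CNT-2 and put Mapk13 at 1.62 in CNT-1.

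Among the regulators of immediate early transcription, Srf and its partners, 5 of 6 listed genes were measured. In CNT-2 1 was past the threshold on the higher side and 0 on the lower side, against 10.1% and 6.56% of all genes. The gene on the higher side was Elk3, a ternary complex factor, with 2.01 in CNT-2, 0.17 in CNT-1 and 0.010 in control. Its difference was 2.00 ± 0.07 (probe SD, 2 probes). Srf itself was at 0.15 ± 0.27 (probe SD, 3 probes) for CNT-2 minus control. Of the 11 genes listed for turnover and partners 6 were measured, and Zfp36, whose product destabilises mRNAs with AU-rich ends such as that of Fos, was at -2.13 in CNT-2, -0.048 in CNT-1 and -0.093 in control. Irf4, which binds DNA together with Batf, had a difference of 0.91 for CNT-2. In CNT-1 0 genes of either group were past the threshold, against 1.16% of all genes on the higher side and 2.15% on the lower side. After quantile normalization the Zfp36 difference in CNT-2 was -0.59.

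Of 30 genes with described AP-1 sites in their control regions 28 were measured. In CNT-2 12 were past the threshold on the higher side and 2 on the lower side, against 10.1% and 6.56% of all genes, and the median was 0.70. The list was chosen with earlier results of these data known, so the counts only describe it. Centring on the 75th percentile gave a median of 0.26, beside -0.40 over all genes, which as deposited was 0.041. Mmp10 and Spp1, osteopontin, had the largest differences of the list, 7.11 and 4.22. Mmp12, macrophage elastase, was at 3.83 in CNT-2, 0.55 in CNT-1 and -0.027 in control, and Mmp3, stromelysin, at 3.63 in CNT-2, 0.53 in CNT-1 and 0.22 in control. Mmp9, gelatinase B, had a difference of 2.00. In CNT-1 minus control Mmp10 was at -0.68 and Mmp9 at -0.62. Tnf was at 2.24 and Hbegf, a ligand of the EGF receptor, at 2.21. The 2 genes on the lower side were Mmp1 at -2.21 and the metallothionein Mt1 at -1.15. Not every target was high, since the collagenase Mmp13 was at 0.29 and the cell cycle gene Ccnd1 at -0.76 ± 0.02 (probe SD, 2 probes). In CNT-1 0 of 28 were past the threshold on the higher side and 1 on the lower side, again Mmp1 at -2.21, whose control value was 0.60. Quantile normalization left 6 genes on the higher side in CNT-2, against 4.59% of all genes, with Mmp9 at 0.96, Hbegf at 0.94 and Mt1 at -0.69. In CNT-1 minus control it put Tnf past the threshold at 1.09 and Hbegf at -1.07.

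The genes most like Fosl1 and Jund in the pair of differences from control were sought among all named genes by Euclidean distance over these 2 values. For Fosl1 they were the pentraxin gene Ptx4 at a distance of 0.079, LOC691414 at 0.099 and the inducible nitric oxide synthase Nos2 at 0.12. For Jund they were Lpcat1, a phospholipid-remodelling enzyme, at 0.052, the apoptosis inhibitor Birc3 at 0.085 and the crystallin gene Cryba4 at 0.11. With 2 values per gene this likeness rests on very little and is given as a description.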

How the data were processed

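Cy3-labelled RNA from NR8383 cultures was run on Agilent 1-colour arrays, per the labels' protocols. The submitters' processing notes name Agilent Feature Extraction 10.7.3.1 as the software. The authors deposited 1 column of values per group for 41103 probes, presumed from the values to be log2 differences from a baseline. No source used here gives the normalization, the baseline or any pooling. The labels give every sample replicate number 4 and the design text an n of 4, so a column may be 1 array or a mean.

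Of the probes, 20932 had 1 gene symbol, 0 several and 20171 none in the platform annotation; 17415 were named through RefSeq accessions (GRCr8), 3113 by current symbol, 396 by synonym, and 8 kept an unmatched symbol. Differences were taken per probe and averaged per gene in Python 3.11.15 with pandas 2.3.3, checked on a table with planted differences. No test was run and 0 value columns were left out.

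All members are named. From each related list up to 4 genes with the largest differences past 1 log2 unit per comparison are named, with regulators of a member from the Srf and turnover lists. Mafg, Mapk8, Mapk9, Irf4, Mmp9, Tnf, Hbegf, Mmp13, Ccnd1, Il1b, Ccl2, Vegfa and Vwf were added after their values were seen. Members and lists were chosen with earlier results of these data known. Alternatives were scaling, probe summary, leaving out probes no more than 0.02 from the negative-control probe in the control column (which, with centred values, says nothing of level), log base, threshold, symbols and no control subtraction. Amino acid sequences were not used here.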

Additional observations from a re-analysis of the deposited data

How the results depend on the processing

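No paired analysis was possible because each group has 1 column and no test was made, and no replicate could be left out for the same reason. For the counts and medians of the AP-1 genes, the number on the higher side in CNT-2 minus control was 2 rather than 3 under quantile normalization and with a threshold of 2, and 4 with natural logs and with a threshold of 0.5. The share of all genes on that side was 4.59% under quantile normalization and 2.71% with a threshold of 2. It was 16.7% with natural logs and 23.4% with a threshold of 0.5. Of the recomputed counts and medians of the AP-1 genes, 93 stayed within 1.5 times the count or within the median probe SD and 12 did not. Many of the 93 could not move, so their number does not measure robustness. Every measured AP-1 gene but Jund has 1 probe, no AP-1 probe was left out as background-like, and another threshold leaves medians unchanged. Another threshold or log base can move counts or medians by construction, and the cause of the other moves was not tested. With 75th percentile centring the median of the 9 genes was -0.060 in CNT-2 minus control, and between CNT-2 and CNT-1 it was 0.20. The medians over all genes were then -0.40 and -0.23, since centring shifts every gene of a column alike. With spike-in centring the medians of the 9 genes were 0.15 and 0.31, beside -0.18 and -0.12 over all genes. Reading the values as natural logs gave medians of -0.40 in CNT-1 minus control and 0.83 between CNT-2 and CNT-1. It put 1 gene past the threshold on the lower side in CNT-1, against 4.72% of all genes. A threshold of 0.5 put 1 gene on the higher and 1 on the lower side in CNT-1 minus control, against 4.96% and 8.18% of all genes. It put 5 on the higher side in CNT-2 minus CNT-1, against 24.4%. In CNT-2 minus CNT-1, 0 genes were past the threshold on the lower side under quantile normalization and with a threshold of 2, against 2.31% and 0.48% of all genes. Under quantile normalization the differences of Tnf, Hmox1 and Dcn for CNT-2 minus CNT-1 changed sign, to -0.073, -0.00367 and -0.012. Signal over background could not be judged, since centring removed the level of every probe.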

Other observations

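Creb1 and Crem, relatives of the AP-1 genes that bind cyclic AMP response elements, were singled out after their values were seen, because their probes differed. The 5 probes of Creb1 read 0.93, 0.93, -0.18, -0.75 and -2.03 for CNT-2 minus control, 1 of them past the threshold on the lower side, while in CNT-1 minus control they ran from -0.15 to 0.24. The 3 probes of Crem read -0.71, -0.52 and -1.61 in CNT-2 minus control. The gene means of -0.22 and -0.95 therefore describe neither gene well. Probes of other listed genes spread widely too. Examples in CNT-2 minus control are Vwf, a marker of other cells, at -1.73 ± 1.66, and Vegfa, a listed AP-1 target, at 2.09 ± 0.99 (probe SD, 2 probes each). Which transcripts the probes detect is not given in the files.

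Some genes with described AP-1 sites had their largest value in CNT-1. Il1b, which encodes the cytokine interleukin-1 beta, was at -0.33 ± 0.16 in CNT-2 minus control and 0.71 ± 0.01 in CNT-1 minus control (probe SD, 2 probes). Ccl2, a monocyte chemokine, was at 0.20 in CNT-2 minus control and 0.88 in CNT-1 minus control. Neither was past the threshold against control, and Il1b was at -1.03 in CNT-2 minus CNT-1.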
